A study of Mus musculus with 6 samples.

Results

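The annexins are a gene family of calcium-dependent, phospholipid-binding proteins. The 10 members considered were Anxa1 to Anxa9 and Anxa11, of which 9 had a probe set of their own on the array, 1 each, among 22180 genes measured. All 3 probe sets that name Anxa11 also name the predicted genes Gm2274 and Gm2260, so their signal cannot be assigned to Anxa11, and this member is described only through them. Cells were mouse embryonic fibroblasts (MEFs), connective tissue cells cultured from embryos, of genotype Pax7+/+ (wild type, 3 arrays) or Pax7-/- (knockout, 3 arrays). Both groups shared the strain F1 (C57Bl6N x 129Sv), had no treatment named and were collected when the cultures were confluent. Pax7 is a paired-box transcription factor. The titles call the replicates biological. The labels give neither the knockout allele nor the embryos or cultures behind each replicate number. The p-values therefore measure the spread between these samples, which may be technical in part. In the fit with the replicate number as a block, they measure the spread between pairs of equal replicate number. The members were chosen by family name, and the family was selected on the Anxa1 difference between the genotypes in these same arrays, which had 1 direction in all 3 pairs of equal replicate number. That difference is therefore a description, without a test.

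An annexin has a conserved core that binds calcium and, through it, the acidic phospholipids on the inner face of cell membranes, and a short, variable tail that binds partner proteins. Through these contacts annexins organise membranes during vesicle traffic, link them to actin, and help to close wounds in the plasma membrane. Fibroblasts are known to make several of them in large amounts. Values below are log2 signals, on which a difference of 1 is a doubling, and differences are knockout minus wild type. Signals of different probe sets are not compared with each other, since probes differ in how brightly they report. In RNA from a culture, fewer expressing cells and less RNA per cell cannot be told apart.

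The arrays divided by replicate number before they divided by genotype. The 2 arrays numbered replicate 3 differed from the remaining 4, with correlations of 0.789 to 0.824 across this divide and 0.982 to 0.988 within each side. Both genotypes hold 1 array of replicate 3, so it has an even share in the differences below unless an array is left out, and the annexins are given by pair. The background level of an array, set so that 95% of 1394 olfactory and vomeronasal receptor genes lie at or under it, was 5.33 to 5.44 on replicates 1 and 2 and 4.63 to 4.65 on replicate 3. One label gives the cell type as ESCs, in conflict with the titles. All 11 fibroblast markers lay above background on every array, while 1 of 10 pluripotency markers (Pou5f1) did so and 6 were at or below background on every array. The Pax7 signals of replicates 1, 2 and 3 were 6.14, 5.65 and 4.88 in wild type and 6.17, 5.95 and 5.05 in the knockout. They lay above background on every array, but close to it on wild type replicates 2 and 3. The genotypes differed by 0.16 (limma, adjusted p = 0.804 in a fit with the replicate number as a block). The Pax7 probe set may lie outside whatever was deleted, so it does not check the genotype.

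Anxa1 encodes annexin A1, also called lipocortin 1, which glucocorticoids induce and which restrains cytosolic phospholipase A2 and, outside the cell, signals through formyl peptide receptors to limit inflammation. In wild type, replicates 1, 2 and 3 gave log2 signals of 8.32, 8.62 and 9.78; in the knockout they gave 9.06, 9.13 and 10.50. Each knockout array lay above the wild type array of the same number, and both knockout arrays of replicates 1 and 2 lay above both of their wild type counterparts. Over all 6 arrays the genotypes overlapped, because wild type replicate 3 lay above knockout replicates 1 and 2. The pair differences were 0.73, 0.51 and 0.72, a mean of 0.65 ± 0.13 (SD, n = 3 pairs), or 1.57-fold. Of all 22180 genes, 10 (0.0451%), Anxa1 included, had a difference this large or larger in the same direction.

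The Anxa1 difference was large against the spread of pairs and small against the spread of arrays. With genotype as the only term, its limma SE was 0.56 and its 95% interval ran from -0.73 to 2.03 (adjusted p = 1.00). With the replicate number as a block, the SE was 0.09 and the interval ran from 0.44 to 0.87. Its adjusted p was then 0.0604, which did not pass the threshold of 0.05. The Anxa1 difference chose the family, so these p-values are no test of it, and nothing is supported with them. Over the other fits with a block the adjusted p fell on both sides of the threshold. It ran from 0.0118 (trend and robust eBayes, chosen after seeing the data) to 0.206 (without replicate 3). Without replicate 1 it was 0.0406 (difference 0.61), which is not counted as a pass. Without a block, the difference moved to 0.18 without knockout replicate 3, 0.36 without wild type replicate 1 and 1.09 without wild type replicate 3, each of which gives replicate 3 unequal weight in the genotypes. Within replicates 1 and 2 alone the difference was 0.62, and the pair of replicate 3 gave 0.72.

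The stretch before the Anxa1 start site is shown beside that of Anxa2, a paralogue with a difference of -0.06. Of the 8 annexins with a sequence to search, these were the 2 with a TATAAA match. The sequences are the 250 bases upstream of the RefSeq start (build GRCm38.p6), at chr19:20390672-20390921 on the minus strand for Anxa1 and chr9:69453433-69453682 on the plus strand for Anxa2, 5′ to 3′, with TATAAA and the AP-1 motif TGANTCA in capitals.
Anxa1: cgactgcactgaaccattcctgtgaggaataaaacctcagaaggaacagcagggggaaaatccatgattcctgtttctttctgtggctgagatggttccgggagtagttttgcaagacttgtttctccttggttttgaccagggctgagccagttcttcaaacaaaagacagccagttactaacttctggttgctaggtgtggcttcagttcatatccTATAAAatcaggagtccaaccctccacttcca
Anxa2: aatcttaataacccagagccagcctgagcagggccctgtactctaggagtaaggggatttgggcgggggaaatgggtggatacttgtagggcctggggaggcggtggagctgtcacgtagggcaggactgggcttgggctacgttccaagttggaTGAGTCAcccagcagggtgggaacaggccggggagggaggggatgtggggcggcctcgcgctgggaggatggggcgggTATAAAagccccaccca

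Motifs were searched on both strands of these windows and of all 32851 promoter windows in the RefSeq table. In it 8 of the 10 annexins had a window and 3 of them more than 1 (11 windows in all). Anxa3 and Anxa6 had no window and were not searched. TATAAA was present in the windows of Anxa1 and Anxa2 and in 12.4% of all windows. TGANTCA was present in that of Anxa2, and in 6.75% of all windows. ATTA, the core bound by homeodomains such as that of Pax7, was found in 3 of the 11 windows, against 54.9% of all windows. These were windows of Anxa2, Anxa4 and Anxa7, and not of Anxa1. GTCACGC, a core of the sites bound by paired domains such as that of Pax7, was found in none of the 11 windows, against 1.78% of all windows. A match is a description of letters in this window, and a missing match says nothing of the factor.

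**Figure D1:**
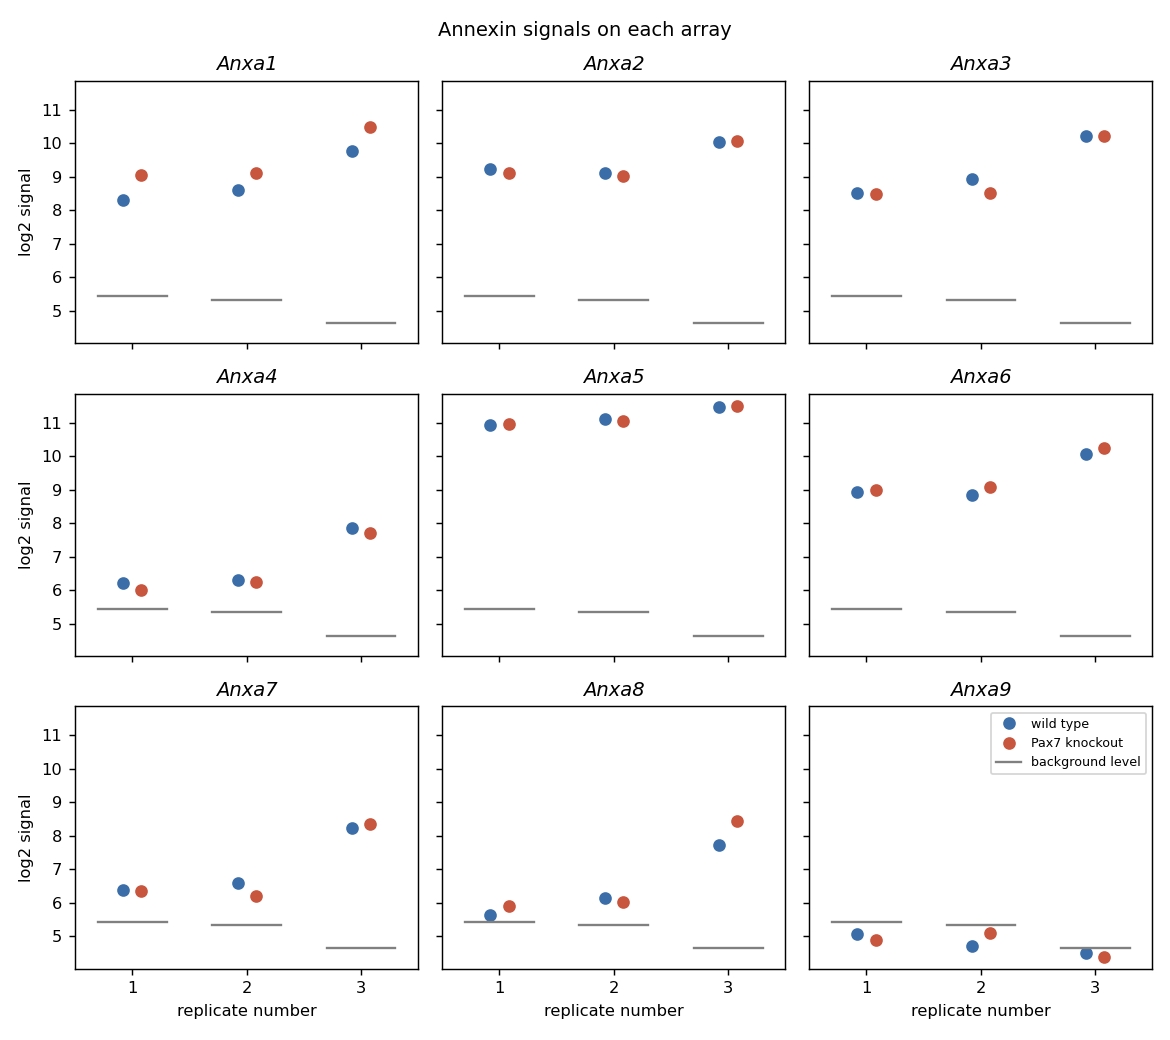
Log2 signal of each of the 9 measured annexins (1 panel each) by replicate number, with wild type in blue, knockout in red and the background level (mean of both arrays of a number) as a grey line. Anxa1 is higher in the knockout at every replicate number, all 8 annexins other than Anxa9 are higher on replicate 3 than on replicates 1 and 2, and Anxa9 lies below background throughout.

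Anxa2, which forms a tetramer with S100a10 and binds plasminogen and its activator at the cell surface, had 9.23, 9.11 and 10.05 in wild type (again replicates 1, 2 and 3) and 9.11, 9.02 and 10.06 in the knockout. Its difference was -0.06 (SE 0.09 with the block), with pairs of -0.11, -0.09 and 0.01. Anxa5, which binds phosphatidylserine and is used as a probe for dying cells, had 10.92, 11.11 and 11.47 in wild type and 10.96, 11.06 and 11.51 in the knockout. The pairs of Anxa5 went both ways, by at most 0.05 in size, and averaged 0.01 (SE 0.09 with the block). Anxa6, the annexin with a duplicated core, had 8.94, 8.84 and 10.05 in wild type and 8.98, 9.07 and 10.26 in the knockout. Its difference of 0.16 (SE 0.09 with the block) was positive in all 3 pairs (0.04, 0.23 and 0.20).

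Anxa3 and Anxa4, both also known from epithelial cells, were the 2 annexins that lay lower in the knockout in all 3 pairs, neither past the threshold. Anxa3 had 8.52, 8.93 and 10.21 in wild type and 8.50, 8.52 and 10.21 in the knockout. Its difference of -0.14 (SE 0.11 with the block) came from replicate 2 (-0.41), since the pairs of replicates 1 and 3 gave -0.01 each. Anxa4 had 6.20, 6.30 and 7.86 in wild type and 6.01, 6.23 and 7.71 in the knockout, with pairs of -0.19, -0.07 and -0.15 and a mean of -0.14 (SE 0.09 with the block).

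Anxa7, also called synexin and known for fusing membranes of secretory vesicles, had 6.38, 6.58 and 8.22 in wild type and 6.35, 6.20 and 8.36 in the knockout. Its pairs (-0.03, -0.37 and 0.14) had different signs. Anxa8 had 5.62, 6.15 and 7.73 in wild type and 5.90, 6.02 and 8.44 in the knockout. Wild type replicate 1 of Anxa8 lay close to the background level of 5.44. The Anxa8 difference of 0.28 (SE 0.14 with the block) had pairs of 0.27, -0.13 and 0.70. It was 0.07 without replicate 3 and thus rested on that pair, in which it came close to Anxa1. Anxa9 was not above background on any array, with 5.05, 4.69 and 4.50 in wild type and 4.89, 5.09 and 4.38 in the knockout, so no difference is given for it.

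No paralogue passed the test in either fit. With the block the adjusted p of the 8 paralogues ran from 0.784 to 0.996 (limma, Benjamini-Hochberg over all genes), and 0 of 9 annexins were past the threshold, against 0.0766% of all genes (0.00902% higher and 0.0676% lower). Without the block 0 of 22180 genes passed (0%), and 15 (0.0676%) had an unadjusted p under 0.05, none of them an annexin. With the block, 0 of the 8 paralogues had an unadjusted p under 0.05, against 6.73% of all genes. A missed threshold does not show that a paralogue did not differ. The 95% intervals with the block bounded the paralogues above background between -0.39 (Anxa3) and 0.60 (Anxa8), and apart from Anxa8 their upper ends lay at or below 0.37. Without the block these intervals were wider. The narrowest was that of Anxa5 (-0.60 to 0.61) and the widest that of Anxa8 (-1.90 to 2.47). Apart from Anxa5 their upper ends then lay above the Anxa1 difference of 0.65, so that fit does not bound these paralogues below it. Of the 8 paralogues, 1 was higher (Anxa6) and 2 were lower (Anxa3 and Anxa4) in all 3 pairs, against 27.5% of all genes (13.8% higher and 13.8% lower), and 0 were free of overlap between the genotypes, against 1.41%.

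**Figure D2:**
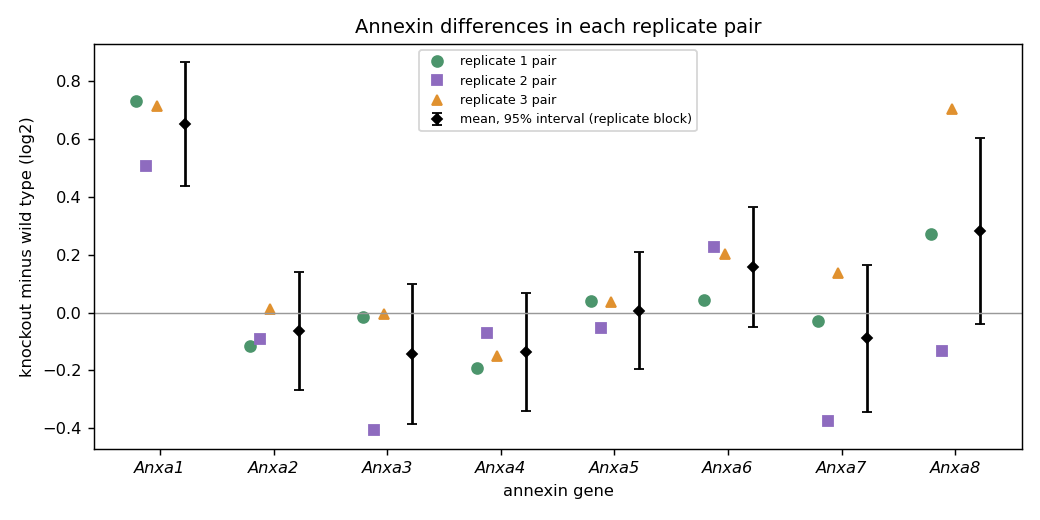
Knockout minus wild type (log2) for the 8 annexins above background on all 6 arrays, with coloured symbols for the 3 replicate pairs and black diamonds for their mean with limma's 95% interval in the fit with the replicate block. The Anxa1 pairs lie between 0.51 and 0.73, while the pairs of 6 of the 7 paralogues lie between -0.41 and 0.23 and those of Anxa8 between -0.13 and 0.70.

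Set against its paralogues, Anxa1 stood highest in every pair. The median difference of the 8 paralogues, Anxa9 included, was -0.03 (SD over members 0.15), against -0.00 for all genes, and their pair medians were -0.02, -0.08 and 0.03. Anxa1 exceeded that median by 0.75, 0.59 and 0.69 in the 3 pairs, a mean of 0.68 over the genotypes. Over the 7 paralogues above background, the median was -0.06 and the excess of Anxa1 was 0.72. In each pair all 7 of them had a smaller difference than Anxa1. The excess over a single paralogue above background averaged from 0.37 ± 0.32 (SD, n = 3 pairs) for Anxa8 to 0.79 ± 0.10 for Anxa3. Over Anxa8 it was 0.46, 0.64 and 0.01, so that in replicate 3 the 2 genes were level. Because Anxa1 was picked for its difference, this excess has no test.

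**Figure D3:**
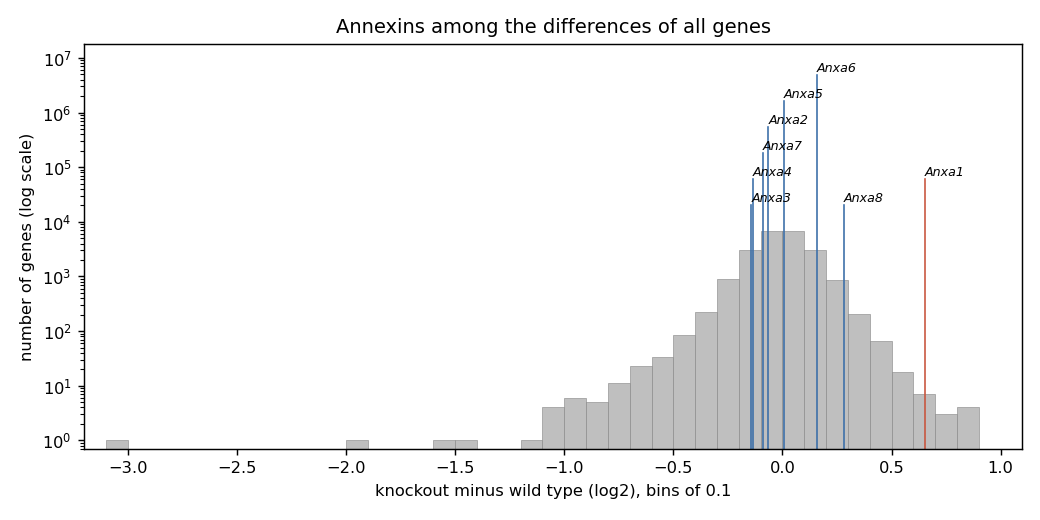
Number of genes (log scale) by their knockout minus wild type difference in bins of 0.1, over 22180 genes, with the 8 annexins above background marked as vertical lines, Anxa1 in red; the heights of the lines only separate the names. Anxa1 at 0.65 lies in the upper tail, where 10 genes, Anxa1 included, have its difference or more, and the paralogues lie between -0.14 and 0.28.

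The probe sets shared by Anxa11, Gm2274 and Gm2260 had differences near 0. Of the 3 probe sets, 2 held identical values: 7.69, 8.01 and 9.12 in wild type and 7.69, 7.89 and 9.25 in the knockout, with a mean difference of 0.00. The third had a difference of -0.04, with pairs of -0.02, -0.31 and 0.22. The signal of Anxa11 itself was not analysed here. Outside the member list, Anxa10 was at or below background on every array, and Anxa13 was above it on replicates 1 and 2 but not on replicate 3.

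Each of the 8 annexins above background shifted more between replicates than between genotypes. Replicate 3 lay above the mean of replicates 1 and 2 for all 8 annexins above background, from 0.46 for Anxa5 to 1.85 for Anxa8 in wild type and from 0.50 to 2.48 for the same 2 genes in the knockout. The median shift of the 7 paralogues among them was 1.49 in wild type and 1.59 in the knockout. Over the 8416 genes above background on all arrays it was 0.82 and 0.80, so that replicate 3 was also higher over such genes at large. Over all 22180 genes the median shift was -0.10 in both genotypes, and signals were spread more widely on replicate 3. Anxa1 shifted by 1.31 and 1.40, in both genotypes more than its genotype difference. Beyond calling the replicates biological, the labels do not say what the replicate numbers stand for. The part of this shift in the genotype differences was not tested beyond the values by pair.

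Genes whose signals ran most like those of Anxa1 were found by the root mean square distance between profiles over the 6 arrays, each centred on its own mean, among genes above background on every array. The 5 nearest were Mdm2, the ubiquitin ligase that restrains p53 (distance 0.13), Zdhhc18, a palmitoyltransferase (0.13), Dusp6, a phosphatase of ERK (0.13), Ttc9 (0.14) and Htr2a, a serotonin receptor (0.14). Mdm2 had signals of 7.09, 7.30 and 8.47 in wild type and 8.11, 7.95 and 9.22 in the knockout, and so shared both the step at replicate 3 and the higher knockout arrays. Of the 5, Mdm2 and Ttc9 were past the threshold with the block (adjusted p = 0.0400 for both), as the only 2 genes of the array called higher. Both calls ended without replicate 2 (limma with the block, adjusted p = 0.117 for Mdm2 and 0.204 for Ttc9) and without replicate 3 (0.0747 and 0.127). The differences of Zdhhc18, Dusp6 and Htr2a were 0.47, 0.40 and 0.53; without knockout replicate 3 they were 0.057, -0.076 and 0.0012, and with the mean of its probe sets that of Dusp6 was 0.24. By the 3 pair differences alone, the nearest were the AP-1 subunit Fosb (0.82, 0.38 and 0.72), Specc1, the tetraspanin Cd151 (0.54, 0.55 and 0.56), Serinc2 and Mogat2, an acyltransferase. The nearest paralogue over the 6 arrays was Anxa6, at a distance of 0.28, at rank 384 among all genes. Likeness was the rule by which these genes were picked and is not a test.

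Partners and pathway genes of the annexins were taken from 6 lists with 50 genes, of which 44 were measured and 31 lay above background on every array. None of the 44 passed the threshold in either fit, against 0.0766% of all genes with the block. Without the block 0 of 44 had an unadjusted p under 0.05. With it 8 (18.2%) did, against 6.73% of all genes and 777 of the 8416 genes above background on every array. By list the 8 were 3 of 9 genes of the glucocorticoid response and 2 of 5 of the phospholipase and prostaglandin list. The S100 list (8 genes), the calcium sensors and ESCRT genes (7) and the plasmin system (6) gave 1 each. Membrane repair gave 0 of 9. In all 3 pairs 9 of the 44 were higher and 5 lower, 31.8% together, against 27.5% of all genes. Among genes above background on every array, 15.5% were higher and 15.3% lower in all 3 pairs. The median difference of the 44 genes was 0.07, against -0.00 for all genes, with pair medians of 0.11, -0.06 and 0.05. The lists were chosen with earlier results of these data known, so these counts are a description.

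Small calcium-binding S100 proteins dock on annexin tails. Of 8 partners measured (7 S100 genes and Ahnak, a giant scaffold bound by Anxa2 with S100a10), 2 were higher and 1 lower in all 3 pairs. S100a11, the partner of Anxa1, had signals of 10.88, 10.73 and 10.41 in wild type and 10.99, 10.94 and 10.56 in the knockout. Its pairs were 0.11, 0.21 and 0.15, averaging 0.16 (limma with the block, SE 0.09, adjusted p = 0.804), and unlike Anxa1 it was lowest on replicate 3. S100a10, the partner of Anxa2, and S100a6, both named after their values were seen, had differences of 0.08 and 0.09. S100a4, which is also on the list of fibroblast markers, was at -0.26 (pairs -0.16, -0.32 and -0.29; SE 0.09 with the block, adjusted p = 0.642).

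The axis that Anxa1 is known to restrain was measured through 5 of 8 listed genes, since Fpr1, Fpr3 and Ptgs1 had no usable probe set. Pla2g4a, the cytosolic phospholipase A2 that releases arachidonic acid, had signals of 6.66, 6.90 and 8.85 in wild type and 6.87, 7.24 and 9.11 in the knockout. Each knockout array was higher than its partner, by 0.20, 0.33 and 0.26 (difference 0.27, SE 0.09 with the block, adjusted p = 0.617). Ptgs2, the inducible cyclooxygenase, was at 0.28 (pairs 0.38, 0.07 and 0.39; SE 0.10 with the block, adjusted p = 0.659). Ptges, a prostaglandin E synthase named after its values were seen, had pairs of 0.11, -0.34 and -0.77. The formyl peptide receptor Fpr2 was not above background on any array.

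Genes of the glucocorticoid response, the hormone pathway that induces Anxa1, had a median difference of 0.06 over 9 members, 3 of them higher and 1 lower in all 3 pairs. Dusp1, a phosphatase of MAP kinases that glucocorticoids and mitogens both induce, had 9.04, 9.23 and 10.03 in wild type and 9.74, 9.71 and 10.45 in the knockout. Its pairs of 0.70, 0.48 and 0.42 gave the mean nearest to that of Anxa1 among the 31 list genes above background on every array (difference 0.53, SE 0.10 with the block, adjusted p = 0.150). Sgk1, a kinase, was at 0.25 (pairs 0.51, 0.16 and 0.08; adjusted p = 0.727 with the block). Fkbp5, a chaperone partner of the glucocorticoid receptor named after its values were seen, had pairs of 0.25, 0.30 and 0.32, from signals close to background. The gene of the receptor itself, Nr3c1, named in the same way, was the lower one, at -0.12. The pairs of the remaining 5 members, also named after their values were seen, had different signs. These were Klf9 (0.10), Zbtb16 (0.06), Cebpd (0.05), Per1 (-0.0095) and Tsc22d3 (-0.08). Of these, Klf9 and Per1 alone lay above background on every array.

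Membrane repair genes (9 measured) had a median difference of 0.03; Dysf, which encodes dysferlin, had pairs of 0.52, -0.27 and 0.18, and the synaptotagmin Syt7 0.02, 0.04 and -0.48. In the plasmin system (6 measured, median 0.09) Plat, the tissue plasminogen activator that Anxa2 binds, was at -0.13 and Plaur, the urokinase receptor, at 0.15. Serpinb2, named after its values were seen, was the plasmin gene with an unadjusted p under 0.05 (limma with the block, 0.0339). Its difference of 0.69 had pairs of -0.02, 0.29 and 1.80, and it was above background on replicate 3 alone. One list held ESCRT genes and the calcium sensors that bind Anxa7 and Anxa11 (7 measured, median -0.00). On it sorcin, Sri, was at 0.15 and the ATPase Vps4a at -0.22 (pairs -0.33, -0.27 and -0.06).

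**Figure D4:**
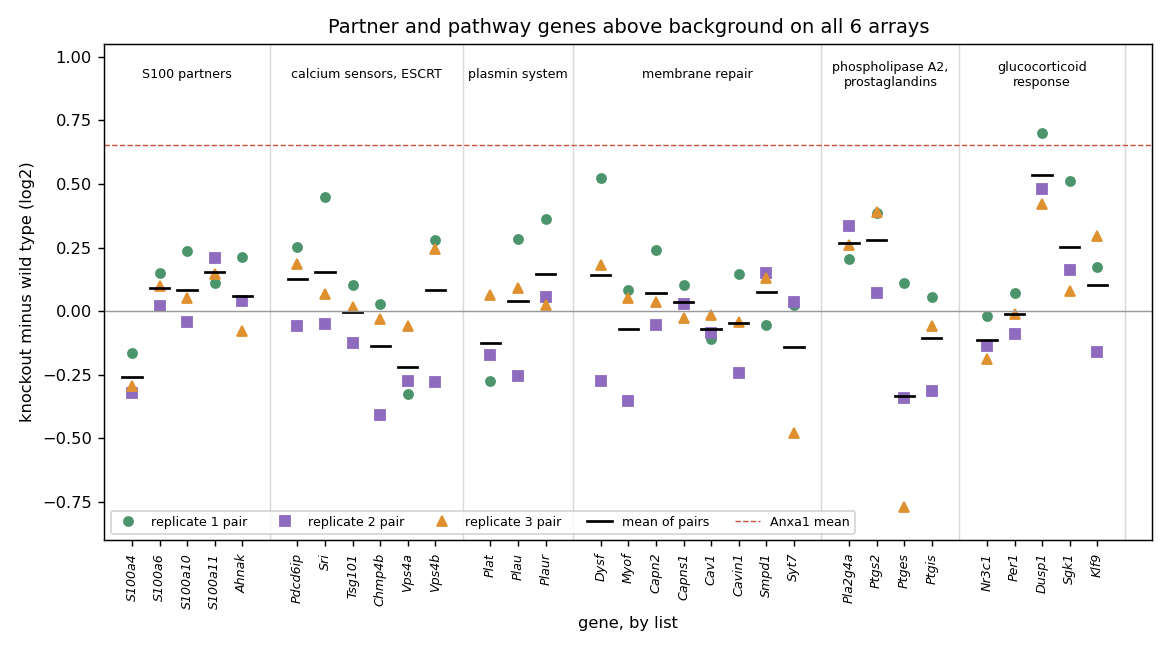
Knockout minus wild type (log2) for the 31 partner and pathway genes above background on all 6 arrays, by list, with coloured symbols for the 3 replicate pairs, a black bar for their mean and a dashed line at the Anxa1 mean of 0.65. No mean drawn reaches the dashed line, and Dusp1 at 0.53 comes nearest. Serpinb2 of the plasmin system, at 0.69 but not above background on replicates 1 and 2, is not drawn.

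Annexin A1 is also abundant in macrophages and neutrophils, so the markers of these cells are given beside it. Of 11 such markers 3 (Csf1r, Fcer1g and S100a9) were above background on every array and 4 were at or below it on every array, among them the pan-leukocyte gene Ptprc and Itgam. Their mean log2 signal was 4.86 to 5.19 in wild type and 4.77 to 5.19 in the knockout, and their median difference was -0.03. In all 3 pairs 1 was higher (Cd68) and 3 were lower (Lyz2, Tyrobp and Fcer1g). Lyz2, at -0.41, was free of overlap between the genotypes but above background on 1 array alone. Its unadjusted p was 0.0385 without the block and 0.00161 with it (limma, adjusted p = 0.293 with the block). Fibroblast markers had a median difference of -0.12, with 5 of 11 lower and 1 higher in all 3 pairs, and a mean log2 signal of 9.26 to 9.92 in wild type and 9.12 to 9.77 in the knockout. Of 9 skeletal muscle markers, 3 were above background on every array and 2 on none, the regulator Myf5 among the latter. Their median difference was 0.17, with all 9 between 0.04 and 0.31 and 3 higher in all 3 pairs, and their mean log2 signal was 5.35 to 6.07 in wild type and 5.63 to 6.18 in the knockout. Of 8 neural markers, 2 (Nes and Tubb3) were above background on every array and 1 on none. Their median difference was 0.19, with 2 higher (Nes, at 0.45, and Stmn2) and 1 lower in all 3 pairs, and their mean log2 signal was 5.64 to 5.74 in wild type and 5.76 to 6.01 in the knockout. Of 9 epithelial markers 3 were above background on every array, with a median difference of 0.02 and 1 higher and 0 lower in all 3 pairs. Of 9 endothelial markers 1 was, with a median difference of 0.00 and 2 higher and 2 lower. Of 6 mesothelial markers 3 were, with a median difference of -0.11 and 1 higher and 2 lower. None of these markers passed the threshold in either fit. The part of these cell type markers in the annexin values was not tested.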

How the data were processed

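Total RNA of 6 samples was measured on Affymetrix arrays, and the authors deposited 1 log2 signal per probe set and array, for which the submitters' processing notes name Partek and RMA. RMA corrects background, normalizes arrays to each other and summarizes probes, which can shrink differences between arrays. The deposited arrays did not share 1 distribution. The interquartile range of all probe sets was 1.88 to 1.94 on replicates 1 and 2 and 2.52 to 2.56 on replicate 3. No version, parameter or genome build of the array is stated, so no probe set positions are printed. The log base follows from RMA and the span of the values. The number of arrays limits the precision; no depth applies. Of 41345 probe sets, 23521 name 1 gene, 1814 several and 16010 were not listed. Those with 1 gene were used, 23328 of them matched by Entrez number to RefSeq (GRCm38.p6), with the probe set of highest mean per gene, which left 22180 genes.

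The genotypes were compared by a two-sided limma fit over all genes (limma 3.58.1 under R 4.3.3, moderated by eBayes, p-values adjusted by Benjamini-Hochberg, threshold 0.05), with genotype as the only term. Equal replicate numbers deviated together from their genotype's mean (correlations 0.920, 0.895 and 0.973), and a second fit took the number as a replicate block. This pairing comes from the data and mainly sets replicate 3 apart, since replicates 1 and 2 of opposite genotype also correlated (0.898 and 0.910). On simulated data over 22180 genes the fit with the block recovered 78 of 100 genes changed by 1 on the log2 scale. It recovered 96 of 100 changed by 2. Both sizes lay in the same simulated data, in which this fit made 5 false calls in all. The fit without the block recovered 0 of 100 at either size and made 0 false calls. The simulated data took their replicate effects and spread from the fit with the block, so they cannot weigh the 2 fits. Sizes near the Anxa1 difference of 0.65 were not simulated. The members and gene lists were chosen with earlier results of these data known. All annexins are named; of each list the 2 genes of smallest p above background are, unless said otherwise.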

Additional observations from a re-analysis of the deposited data

How the results depend on the processing

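No annexin passed the threshold without a block. Nor did any in the planned fits on all arrays with the replicate block or the batch block (replicates 1 and 2 against 3). With the replicate block 17 genes passed in all, with the batch block 19, and within replicates 1 and 2 alone 1. Settings added after seeing the data, each with the replicate block, gave 21 genes (quantile normalization), 42 (genes above background on at least 3 arrays) and 46 (trend and robust eBayes). In the latter 2, Anxa1 alone of the annexins had an adjusted p under 0.05 (limma, 0.0281 and 0.0118). It was 0.0604 with the replicate block on all genes and 0.0865 after quantile normalization. Fewer genes were tested in the fit on genes above background. Since Anxa1 was picked for its difference, none of these values is a test of it. Dusp1 passed with trend and robust eBayes (adjusted p = 0.0260), and the Ttc9 call was lost after quantile normalization (0.0543). Leaving out replicates gave 0 to 98 genes and 0 to 1 annexins, the highest with the block and without replicate 1. The Anxa1 difference was 0.61 to 0.72 under the settings on even shares of replicate 3, and its excess over the paralogues 0.53 to 0.74 with 1 replicate left out.

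Leaving out 1 array makes the shares of replicate 3 unequal, and most small differences then changed sign. The paralogues' median ran from -0.47 (without knockout replicate 3) to 0.38 (without wild type replicate 3; 0.16 and 0.13 without knockout replicates 1 and 2, -0.17 and -0.15 without wild type replicates 1 and 2). The ranges were -0.40 to 0.23 for Anxa2, -0.71 to 0.35 for Anxa3, -0.67 to 0.40 for Anxa4, -0.16 to 0.16 for Anxa5, -0.25 to 0.55 for Anxa6, -0.78 to 0.49 for Anxa7 and -0.55 to 0.90 for Anxa8. They were -0.62 to 0.12 for S100a4, -0.16 to 0.34 for S100a10 and for S100a6, -0.20 to 0.55 for Sri, -0.89 to 0.37 for Vps4a, -0.55 to 0.20 for Plat, -0.47 to 0.83 for Plaur, -0.48 to 0.75 for Dysf, -0.35 to 0.24 for Syt7, -0.42 to 0.95 for Pla2g4a, -0.56 to 0.017 for Ptges, -0.40 to 0.21 for Nr3c1, -0.076 to 0.86 for Dusp6, -0.022 to 1.12 for Cd151 and -0.17 to 0.50 for Pax7. The sign held, but the size moved over 1.5 times, for S100a11 (0.024 to 0.29), Ptgs2 (0.14 to 0.37), Dusp1 (0.29 to 0.83), Sgk1 (0.057 to 0.49), Zdhhc18 (0.057 to 0.86), Htr2a (0.0012 to 1.07), Mdm2 (0.41 to 1.23), Ttc9 (0.32 to 1.07), Fosb (0.34 to 0.90), Specc1 (0.33 to 0.80) and Serinc2 (0.26 to 0.81). On even shares of replicate 3, signs changed for Anxa5 (-0.0077 within replicates 1 and 2, -0.0087 with the block without replicate 1, -0.023 after quantile normalization with and without the block), Anxa7 (0.053 with the block without replicate 2), Syt7 (0.030 within replicates 1 and 2) and Dysf (-0.046 with the block without replicate 1, -0.030 with the mean of its probe sets). The cause of these changes was not tested. Signal over background limits Anxa9 on every array and Anxa8 on wild type replicate 1.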
